A study of Mus musculus with 6 samples.

Results

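Glycosyltransferases and sulfotransferases build the sugar chains of glycoproteins, proteoglycans and glycolipids, and their genes were followed here across the 3 groups of a pancreatic colony experiment. The genes were taken by symbol from the table of 11164 genes: all symbols beginning with B3g, B4g, Galnt and a number, St3gal, St6gal, Fut and a number, Mgat, Gcnt, Gxylt, Chst, Chsy, Hs2st, Hs3st, Hs6st, Ndst, Ext1, Ext2 or Extl, together with Ugt8a. This rule gave 72 genes. Ugt8a entered by name with its rise in these data already known, so its values are given as a description, without a p.

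RNA was measured by poly(A)-selected, strand-specific sequencing of primary colonies, which grew for 3 weeks from pancreatic cells of adult C57Bl/6 mice sorted for high surface CD133 and low CD71 (the transferrin receptor). Control colonies carried a lentivirus with 1 shRNA that has no mammalian target, Glis3 knockdown colonies a pool of 5 shRNA clones against Glis3, a zinc-finger transcription factor, and CD133 knockdown colonies a pool of 5 against CD133, the membrane glycoprotein encoded by Prom1. All groups shared overnight lentiviral exposure with polybrene, puromycin, and a semi-solid methylcellulose medium with Matrigel, serum, conditioned medium, exendin-4, nicotinamide, activin B and RSPO1. Each group had 2 libraries, numbered 1 and 3, and pairs of values below give library 1 and then library 3. Whether these stem from separate animals or cultures is not stated, and p-values therefore reflect only the spread between these libraries, which may be technical. A pool of clones against a single control clone is a difference that both knockdowns share.

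Most membrane and secreted proteins receive N-glycans, which are built on a lipid, transferred in the endoplasmic reticulum, trimmed, and then branched and capped in the Golgi, or mucin-type O-glycans, which start with N-acetylgalactosamine on serine or threonine. Proteoglycans carry long sulfated chains of heparan or chondroitin sulfate, on which growth factors and Wnt ligands bind. Ductal epithelium of the pancreas is rich in mucins and sialylated glycans, and CD133 itself is an N-glycosylated protein.

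Estimated depth was 25.8 to 29.2 megareads per library. The RPKM values of a library (reads per kilobase of transcript and per megaread) summed to between 267688 and 279122. Glis3 fell from 25.1 ± 1.29 RPKM in control to 12.6 ± 0.955 in its own knockdown (SD, n = 2 libraries each), and in the CD133 knockdown Prom1 fell from 197 ± 8.61 to 92 ± 5.64 (SD, n = 2 each). The log2 fold changes were -0.94 (adjusted p = 0.00281) and -1.09 (adjusted p = 0.00874), and the Prom1 call was lost without either control library (-1.15 to -1.03 with 1 library left out). Of 10 duct and progenitor markers 9 were in the table, with summed levels of 9034.49 and 9616.78 RPKM in control, 8293.89 and 7023.04 in the Glis3 knockdown and 7037.65 and 7401.03 in the CD133 knockdown, so all 4 knockdown libraries lay below both controls. Spp1 (osteopontin) was the largest part of these sums, at 6490.03 and 6732.95 RPKM in control, 5211.69 and 4167.97 in the Glis3 knockdown and 3127.42 and 4201.59 in the CD133 knockdown. Of the 9, limma called 1 higher and 0 lower in the Glis3 knockdown, and 3 higher and 1 lower, Spp1, in the CD133 knockdown. No marker other than Spp1 was called lower, so the lower sums do not show a fall of the other duct and progenitor markers. Of 7 acinar markers 2 were in the table, and of these Reg1 was at 196.51 and 304.37 RPKM in control, 107.77 and 48.57 in the Glis3 knockdown and 388.49 and 382.00 in the CD133 knockdown. Fn1, the 1 mesenchymal marker of 7 in the table, was at 112.32 and 111.93 RPKM in control, 53.48 and 56.31 in the Glis3 knockdown and 84.70 and 87.79 in the CD133 knockdown. Cd68 alone stood for 5 immune markers at 5.12 to 6.39 RPKM, 4 of 7 endocrine markers summed to 0.86 to 12.23 RPKM, and the markers of endothelial and Schwann cells have no row and were not analysed here. The part of these shifts in the results below was not tested. In bulk RNA, fewer cells of a type and less RNA per cell cannot be told apart.

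The 72 genes spanned mean levels from 0.47 RPKM (Chst4) to 187 RPKM (St3gal4), with a median of 9.75 against 9.50 over all genes of the table. St3gal4, which caps galactose with sialic acid, had more than 3 times the mean level of the next gene, B4galt6 (60.6 RPKM), a lactosylceramide synthase. St3gal4 made up 14.5% to 20.0% of the summed level of all 72 genes in a library. In the plot of mean levels by role, 34 genes lay between 1 and 10 RPKM and 34 from 10 RPKM upward. The other 4, Chst4, Fut9, Fut10 and Hs3st3b1, had means under 1 RPKM and were not tested.

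**Figure D1:**
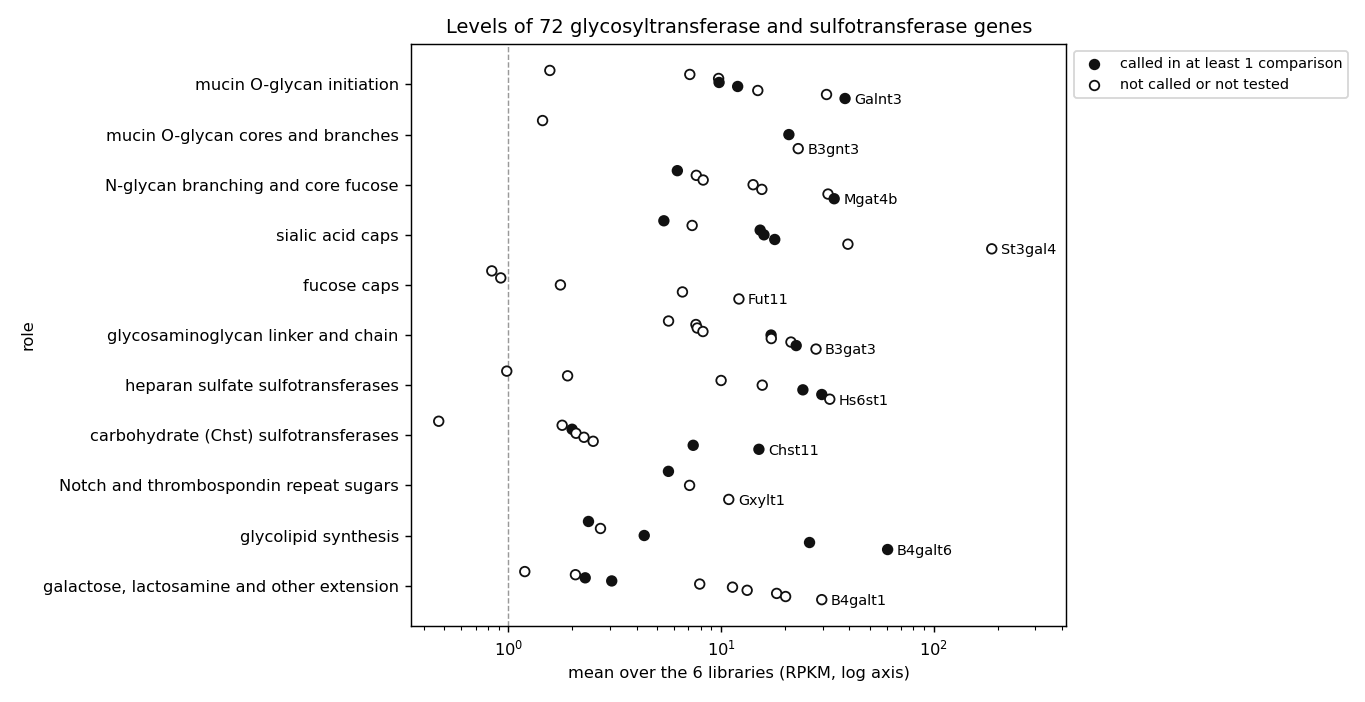
Mean RPKM over the 6 libraries (log axis) of each of the 72 genes, arranged by 11 roles; filled points were called in at least 1 comparison, open points were not called or not tested, and the dashed line marks 1 RPKM. The most abundant gene of each role is named, and St3gal4 at 187 RPKM stands apart from all others.

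A gene was called where limma's p, adjusted (Benjamini-Hochberg) across the 10829 genes of the fit, was under 0.05. Fold changes were taken from log2(RPKM + 1), so those of low genes come out smaller than the ratio of their RPKM. Of the 68 genes tested, 24 were called in at least 1 of the 3 comparisons, Ugt8a among them. Over all genes, 12.93% (Glis3), 11.8% (CD133) and 4.06% (between the knockdowns) were called, and the share called in any comparison is not given here. Counts by role and by list below rest on few genes and are to be read beside the shares of all genes. In the Glis3 knockdown 6 rose and 11 fell, or 8.82% and 16.18%, beside 8.39% and 4.53% of all genes. Without Ugt8a, which the rule chose for its rise, 5 of 67 rose (7.46%). These still include B4galnt2, which lay under 1 RPKM in control and was in the fit only through the knockdown libraries. The 6 that rose were B4galnt2, Ugt8a, St3gal6, Mgat4b, B4galt5 and Galnt12, and the 11 that fell were Gxylt2, Chsy3, Ext1, St3gal1, Chst11, Galnt7, Gcnt2, Ndst1, St3gal5, B4galt2 and B4galnt1. The median log2 fold change was -0.05 over the 68 genes and 0.04 over all genes.

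In the CD133 knockdown 9 rose and 3 fell, or 13.24% and 4.41%, beside 8.16% and 3.64% of all genes. The 9 were B4galnt2, Ugt8a, Mgat4b, Chst2, Gxylt2, Hs3st1, Mgat4a, B4galt5 and Galnt3, and the 3 were St3gal1, Chsy3 and Chst14. Without Ugt8a, 8 of 67 rose (11.94%), B4galnt2 again among them. The median was 0.01 over the 68 genes and 0.04 over all. Both comparisons use the same 2 control libraries, and the share of all genes called in both is not given here. Called in both were 7 genes: B4galnt2, Ugt8a, Mgat4b and B4galt5 higher, Chsy3 and St3gal1 lower, and Gxylt2 lower in the Glis3 knockdown and higher in the CD133 knockdown. In the direct comparison of the knockdowns, 2 genes were higher in the Glis3 knockdown (2.94%, beside 1.61% of all genes) and 8 were lower (11.76%, beside 2.46%).

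**Figure D2:**
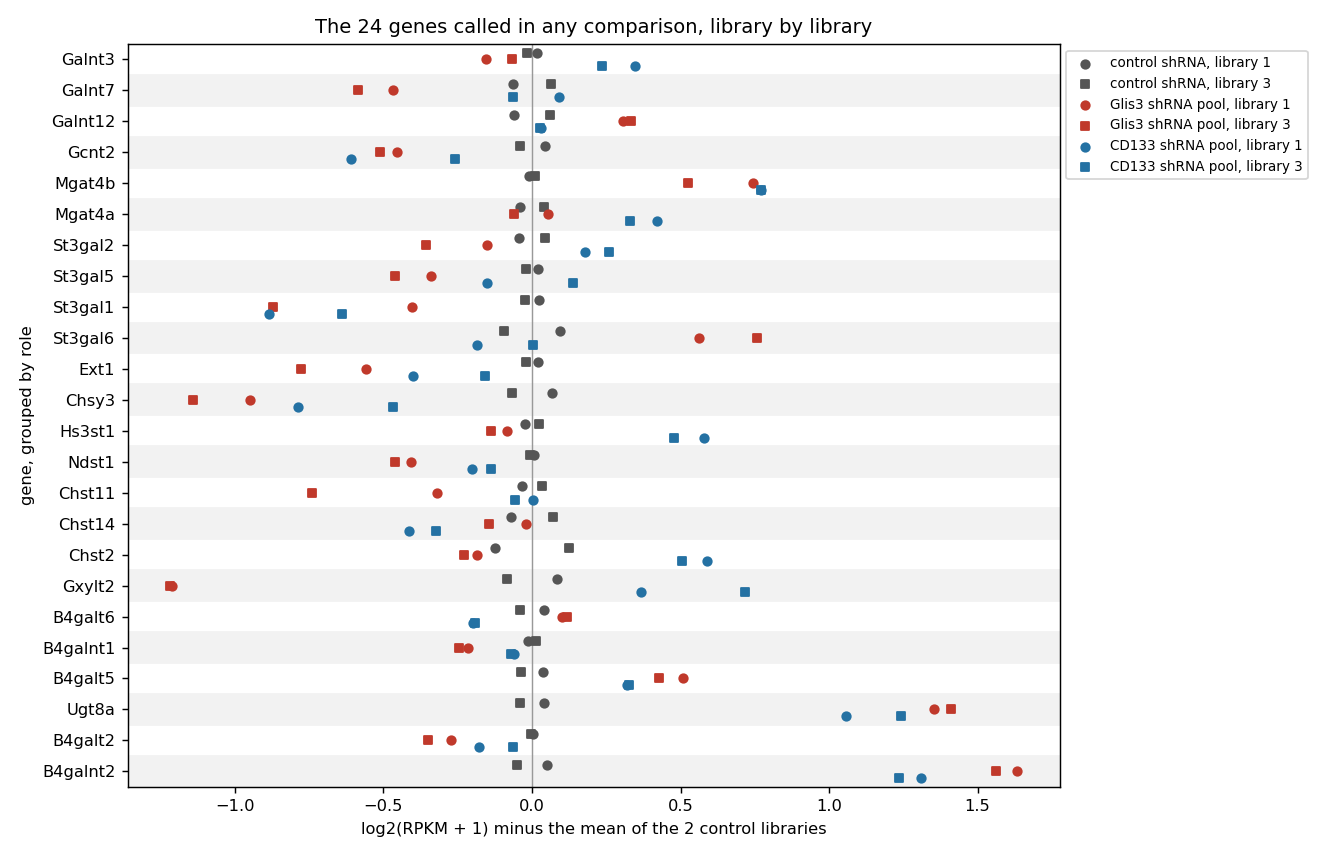
The value of each library on the log2(RPKM + 1) scale, minus the mean of the 2 controls, for the 24 genes called in any comparison; circles are library 1, squares library 3, and colours give the group. B4galnt2 and Ugt8a lie far to the right in all 4 knockdown libraries, and Gxylt2 lies on opposite sides of control in the knockdowns.

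Calls over the whole table depended on single libraries, not only on those of the control. Without Glis3 library 3 fewer genes were called in the Glis3 knockdown, and without CD133 library 1 or 3 fewer in the CD133 knockdown. Libraries were left out 1 at a time, so that "without either" means without each of the pair in turn. Without either control library, most of the 17 calls in the Glis3 knockdown were lost, as were most calls over all genes. B4galnt2 and Ugt8a were called both times. Both were in the fit only through the knockdown libraries, and Ugt8a was also chosen for its rise, so neither is independent support. Gxylt2 was called without control library 3 only. In the CD133 knockdown limma called 0 of the 12 without control library 1 and 0 without control library 3, and in both cases 0 of the 10829 genes. With all libraries, 23 of the 68 genes had an unadjusted limma p under 0.05 in the CD133 knockdown, beside 3366 of the 10829 genes. Every called gene kept its direction when any 1 library was left out. For these genes the groups compared did not overlap, so that outcome was fixed in advance. With median centring of the libraries the Glis3 knockdown had 5.32% of all genes higher and 6.57% lower, and the CD133 knockdown 5.16% and 5.65%. Under that scaling, 6 of the 68 genes were higher and 13 lower in the Glis3 knockdown, and 8 higher and 7 lower in the CD133 knockdown. With quantile normalization the counts were 6 and 12 in the Glis3 knockdown, beside 5.92% and 5.73% of all genes, and 6 and 4 in the CD133 knockdown, beside 5.05% and 4.97%.

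**Figure D3:**
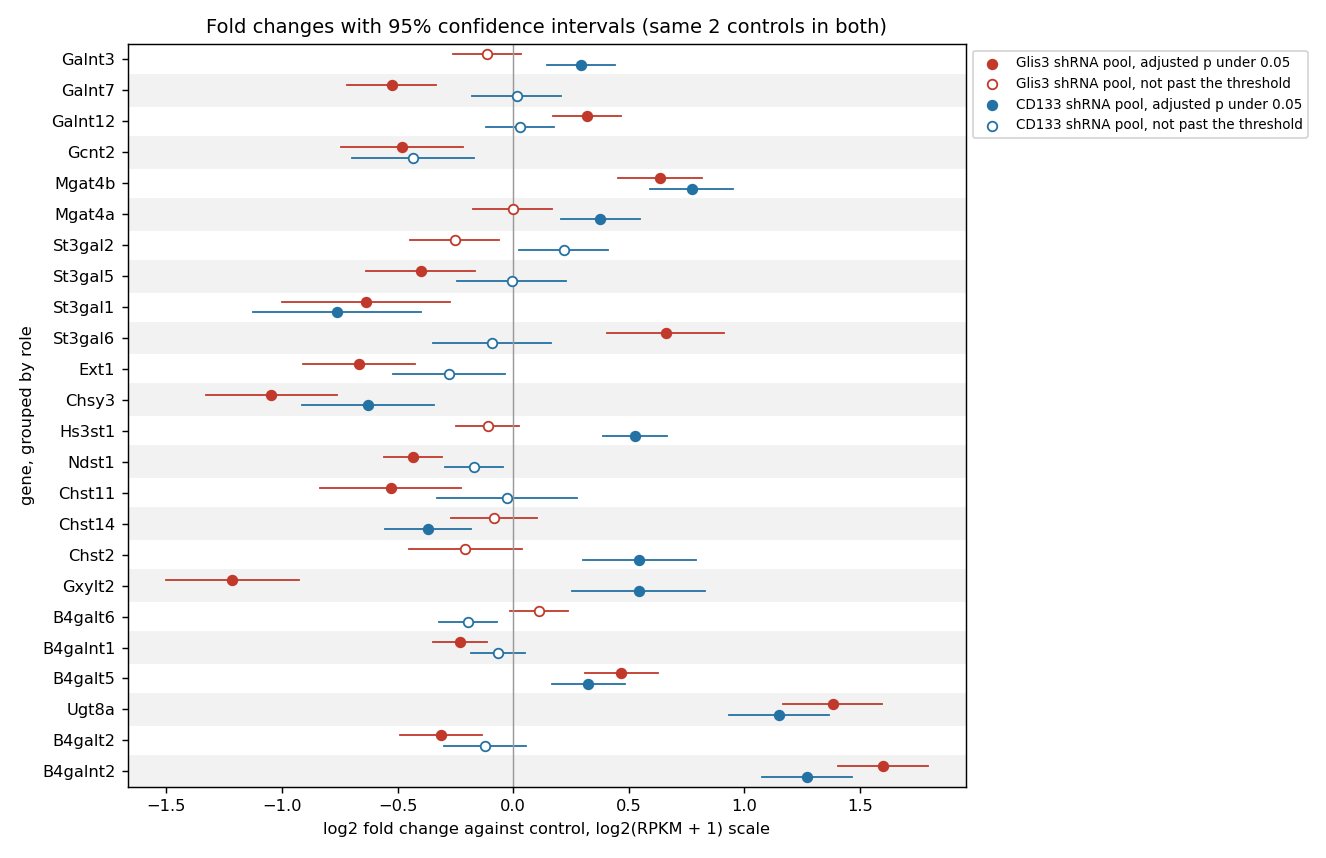
Log2 fold changes against control with 95% confidence intervals for the 24 genes called in any comparison; red is the Glis3 knockdown, blue the CD133 knockdown, and filled points passed an adjusted p of 0.05. Intervals reach up to 1.79 for B4galnt2 and down to -1.50 for Gxylt2 in the Glis3 knockdown. Those of Ugt8a, a gene chosen for its rise, are a description and not a test.

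Among the 68 tested genes, the largest rises on the log2(RPKM + 1) scale were those of B4galnt2 and Ugt8a, low in control colonies and higher in both knockdowns. B4galnt2 (ENSMUSG00000013418.8, GRCm38 chromosome 11, 95865943 to 95914891, minus strand) encodes the N-acetylgalactosaminyltransferase that makes the Sd(a) blood-group structure on sialylated chains. It was at 0.59 and 0.48 RPKM in the control libraries, 3.76 and 3.53 in the Glis3 knockdown and 2.80 and 2.61 in the CD133 knockdown. All 4 knockdown libraries lay above both controls, and the Glis3 libraries above the CD133 libraries. Its log2 fold change was 1.60 (95% confidence interval 1.40 to 1.79, adjusted p = 0.000987) in the Glis3 knockdown, 681% of control, and 1.27 (95% confidence interval 1.08 to 1.47, adjusted p = 0.00874) in the CD133 knockdown, 506%. The difference between the knockdowns, 0.33 (adjusted p = 0.0829), did not pass the threshold. In control B4galnt2 lay under 1 RPKM, so it entered the table and the fit only through the knockdown libraries. The filter thus favoured a rise, which limits what the p-values of B4galnt2 against control can say. With 1 library left out the value in the Glis3 knockdown was 1.55 to 1.65, with the call kept, and in the CD133 knockdown 1.22 to 1.32, with the call lost without either control library. Exons of B4galnt2 overlap those of Gm11534 on the opposite strand, and whether counting used strand is not given in the sources used here.

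Ugt8a (ENSMUSG00000032854.12, GRCm38 chromosome 3, 125865271 to 125938619, minus strand) encodes the galactosyltransferase that turns ceramide into galactosylceramide, a lipid best known from myelin. It was at 0.79 and 0.69 RPKM in the control libraries, 3.44 and 3.62 in the Glis3 knockdown and 2.62 and 3.11 in the CD133 knockdown. Again the 4 knockdown libraries lay above both controls without overlap. The log2 fold change was 1.38 in the Glis3 knockdown, 477% of control, and 1.15 in the CD133 knockdown, 387%. With 1 library left out the values were 1.34 to 1.42 and 1.06 to 1.24. Like B4galnt2, Ugt8a lay under 1 RPKM in control, so it entered the table and the fit only through the knockdown libraries.

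The promoters of B4galnt2, Ugt8a and Gxylt2 are shown because these genes had the largest changes among those with an entry in RefSeq's table of the build GRCm38.p6; Chsy3 and Ext1 have none there. Each line gives the 250 bases before the annotated start, 5′ to 3′ in the direction of transcription. Capitals mark the letters TGGGGGGT, a GLIS-like motif.
B4galnt2, chr11:95914872-95915121, minus strand: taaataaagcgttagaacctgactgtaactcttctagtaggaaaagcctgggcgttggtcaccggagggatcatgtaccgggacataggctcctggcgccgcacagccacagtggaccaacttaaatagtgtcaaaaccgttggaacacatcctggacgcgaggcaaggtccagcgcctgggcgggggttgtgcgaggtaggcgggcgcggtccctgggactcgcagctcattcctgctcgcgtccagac
Ugt8a, chr3:125938653-125938902, minus strand: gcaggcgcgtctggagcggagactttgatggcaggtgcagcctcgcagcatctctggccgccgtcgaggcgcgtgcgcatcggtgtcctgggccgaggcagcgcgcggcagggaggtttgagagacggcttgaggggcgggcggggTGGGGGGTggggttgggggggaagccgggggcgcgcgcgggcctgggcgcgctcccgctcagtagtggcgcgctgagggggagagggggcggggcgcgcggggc
Gxylt2, chr6:100704484-100704733, plus strand: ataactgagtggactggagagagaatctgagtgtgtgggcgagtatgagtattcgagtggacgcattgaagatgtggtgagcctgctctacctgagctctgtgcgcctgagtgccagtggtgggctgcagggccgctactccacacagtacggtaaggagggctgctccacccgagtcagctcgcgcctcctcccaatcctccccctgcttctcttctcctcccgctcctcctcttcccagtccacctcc
Over the windows from 250 bases before to 50 bases after the start, the GC content was 59.0% for B4galnt2, 78.3% for Ugt8a and 62.0% for Gxylt2. The median was 66.0% over the 53 promoters of this gene set with an entry, and 52.7% over all promoters. All promoters include those of genes without a value in these colonies. A background of expressed genes alone was not used, for GC content or for motifs. Ugt8a held TGGGGGGT once, 104 bases before the start. On either strand, that motif occurred in 1.48% of 27025 promoters of that length, and in 2 of the 53 (Ugt8a and Ndst2). TGGGTGGTC, a GLI-like motif, was in 0.24% of all promoters, and CTTTGAA, a TCF/LEF-like motif, in 5.27%. Neither was found in the 53. TATAAA was in 14.16% of all and in 1 of the 53, that of Hs6st2. A match of letters is a description and not a bound site.

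The glycolipid group had 5 tested genes, of which 2 rose and 1 fell in the Glis3 knockdown and 2 rose in the CD133 knockdown. Of the 4 without Ugt8a 1 rose in each knockdown, beside 8.39% and 8.16% of all genes. That gene, B4galt5, a lactosylceramide synthase, was at 3.53 and 3.30 RPKM in the control libraries, 5.27 and 4.94 in the Glis3 knockdown and 4.51 and 4.54 in the CD133 knockdown, so the knockdown libraries all lay above control. Its log2 fold change was 0.47 (95% confidence interval 0.31 to 0.63, adjusted p = 0.0108) in the Glis3 knockdown and 0.32 (95% confidence interval 0.17 to 0.48, adjusted p = 0.0294) in the CD133 knockdown. The second lactosylceramide synthase, B4galt6, was at 63.40 and 59.86 RPKM in the control libraries, 66.21 and 66.94 in the Glis3 knockdown and 53.53 and 53.79 in the CD133 knockdown. It did not pass against control (log2 fold changes 0.11 and -0.20, adjusted p = 0.207 and 0.0566), while the knockdowns differed by 0.31 (95% confidence interval 0.18 to 0.43, adjusted p = 0.035), with the Glis3 knockdown higher. B4galnt1, which makes the gangliosides GM2 and GD2, was at 27.59 and 28.19 RPKM in the control libraries, 23.88 and 23.34 in the Glis3 knockdown and 26.68 and 26.51 in the CD133 knockdown. In the Glis3 knockdown it fell by a small step, -0.23 (95% confidence interval -0.35 to -0.12, adjusted p = 0.0297), and its value in the CD133 knockdown was -0.07 (adjusted p = 0.404). The calls of B4galnt1 and B4galt6 were lost when any single library was left out, with ranges of -0.25 to -0.22 and 0.30 to 0.31. That of B4galt5 in the CD133 knockdown was also lost without either CD133 library (0.29 to 0.36). Exons of B4galnt1 overlap those of Slc26a10 on the opposite strand.

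Gxylt2 had opposite directions in the knockdowns. It (ENSMUSG00000030074.9, GRCm38 chromosome 6, 100704734 to 100810913, plus strand) encodes an enzyme that adds xylose to the O-linked glucose on epidermal growth factor-like repeats of Notch receptors. It was at 6.29 and 5.50 RPKM in the control libraries, 1.97 and 1.96 in the Glis3 knockdown and 7.88 and 10.31 in the CD133 knockdown. The 3 groups did not overlap: both Glis3 libraries were lowest and both CD133 libraries highest. The log2 fold change was -1.22 (95% confidence interval -1.50 to -0.93, adjusted p = 0.0057) in the Glis3 knockdown, 33.3% of control, and 0.54 (95% confidence interval 0.26 to 0.83, adjusted p = 0.0355) in the CD133 knockdown, 154%. Between the knockdowns it was -1.76 (95% confidence interval -2.04 to -1.47, adjusted p = 0.00474), a call kept when any single library was left out (-1.93 to -1.58). The fall was lost without control library 1 (-1.30 to -1.13, adjusted p = 0.0666), and the rise without either control or either CD133 library (0.37 to 0.72). Gxylt1, the paralog with the same activity, was at 10.82 and 10.39 RPKM in the control libraries, 11.32 and 11.60 in the Glis3 knockdown and 10.76 and 10.26 in the CD133 knockdown. Against control it was called in neither knockdown (log2 fold changes 0.10 and -0.01, adjusted p = 0.262 and 0.909). B3glct, which adds glucose to fucose on thrombospondin repeats, was at 7.59 and 7.03 RPKM in the control libraries, 6.65 and 7.09 in the Glis3 knockdown and 6.59 and 7.68 in the CD133 knockdown, with values of -0.08 (adjusted p = 0.562) and -0.03 (adjusted p = 0.823).

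Among 9 genes for the linker and backbone of glycosaminoglycan chains, 2 fell in the Glis3 knockdown (22.22%, beside 4.53% of all genes). In the CD133 knockdown 1 fell (11.11%, beside 3.64%), and none rose in either. Chsy3 (ENSMUSG00000058152.8), a chondroitin polymerase, was at 25.72 and 23.32 RPKM in the control libraries, 12.20 and 10.55 in the Glis3 knockdown and 13.76 and 17.45 in the CD133 knockdown. Both knockdowns lay below control without overlap, and the Glis3 libraries were lowest. The log2 fold change was -1.05 (95% confidence interval -1.33 to -0.76, adjusted p = 0.00689) in the Glis3 knockdown, 46.4% of control, and -0.63 (95% confidence interval -0.91 to -0.34, adjusted p = 0.0258) in the CD133 knockdown, 63.6%. Ext1 (ENSMUSG00000061731.9, GRCm38 chromosome 15, 53064038 to 53346159, minus strand), a subunit of the heparan sulfate polymerase, was at 28.09 and 27.35 RPKM in the control libraries, 18.50 and 15.75 in the Glis3 knockdown and 20.76 and 24.73 in the CD133 knockdown. The level fell in the Glis3 knockdown to 61.8% of control, -0.67 (95% confidence interval -0.91 to -0.43, adjusted p = 0.0129), and its value in the CD133 knockdown was -0.28 (adjusted p = 0.118). Ext2, the other subunit, was at 19.96 and 20.84 RPKM in the control libraries, 22.11 and 21.55 in the Glis3 knockdown and 20.79 and 22.49 in the CD133 knockdown. It was not called in either knockdown (log2 fold changes 0.09 and 0.08, adjusted p = 0.329 and 0.403). B3gat3, which adds the glucuronic acid that completes the linker, was at 27.50 and 30.58 RPKM in the control libraries, 27.03 and 25.63 in the Glis3 knockdown and 28.03 and 28.75 in the CD133 knockdown. Neither knockdown passed against control (log2 fold changes -0.13 and -0.03, adjusted p = 0.217 and 0.801). The difference between the knockdowns did not pass for Chsy3 (-0.42, adjusted p = 0.108) or Ext1 (-0.39, adjusted p = 0.089). The Chsy3 call in the CD133 knockdown was lost without either control or CD133 library 1 (-0.79 to -0.47).

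Of 6 tested heparan sulfate sulfotransferases, 1 fell in the Glis3 knockdown (16.67%, beside 4.53% of all genes). Another rose in the CD133 knockdown (16.67%, beside 8.16%). Ndst1, which removes acetyl groups and adds N-sulfate, the step on which later sulfation depends, was at 27.94 and 27.61 RPKM in the control libraries, 20.72 and 19.88 in the Glis3 knockdown and 24.03 and 25.17 in the CD133 knockdown. In the Glis3 knockdown it fell to 73.1% of control, -0.43 (95% confidence interval -0.56 to -0.31, adjusted p = 0.00798), and its value in the CD133 knockdown was -0.17 (adjusted p = 0.084). The knockdowns differed by -0.27 (adjusted p = 0.0473), a call lost when any single library was left out (-0.30 to -0.23). Hs3st1 (ENSMUSG00000051022.7, GRCm38 chromosome 5, 39613935 to 39755475, minus strand), which adds the rare 3-O-sulfate, was at 25.93 and 26.82 RPKM in the control libraries, 24.81 and 23.88 in the Glis3 knockdown and 39.84 and 37.09 in the CD133 knockdown. Only the CD133 libraries were high: it rose to 146% of control there, 0.53 (95% confidence interval 0.39 to 0.66, adjusted p = 0.0111), and the Glis3 value was -0.11 (adjusted p = 0.242). The difference between the knockdowns was -0.64 (95% confidence interval -0.78 to -0.50, adjusted p = 0.00852), lost only without CD133 library 1 (-0.69 to -0.59). The rise was lost without either control or CD133 library 1 (0.48 to 0.58). Hs6st1, the 6-O-sulfotransferase with the highest mean of the role, was at 30.87 and 29.97 RPKM in the control libraries, 34.92 and 32.15 in the Glis3 knockdown and 32.74 and 33.80 in the CD133 knockdown. Against control it was called in neither knockdown (log2 fold changes 0.14 and 0.13, adjusted p = 0.176 and 0.203).

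The Chst family adds sulfate to chondroitin, dermatan and N-acetylglucosamine, and 3 of its 7 tested genes were called in at least 1 comparison. In the Glis3 knockdown 1 fell (14.29%, beside 4.53% of all genes). In the CD133 knockdown 1 rose and 1 fell (14.29% each, beside 8.16% and 3.64%). Chst11, which makes chondroitin 4-sulfate, was at 16.54 and 17.38 RPKM in the control libraries, 13.38 and 9.74 in the Glis3 knockdown and 17 and 16.26 in the CD133 knockdown. Both Glis3 libraries lay below all others, library 3 further than library 1. The fall was -0.53 (95% confidence interval -0.83 to -0.23, adjusted p = 0.0425), and it ranged with 1 library left out from -0.74 without Glis3 library 1 to -0.32 without Glis3 library 3. It was called only with all 6 libraries or without Glis3 library 1. Chst14, the dermatan 4-O-sulfotransferase, was at 7.80 and 8.72 RPKM in the control libraries, 8.12 and 7.36 in the Glis3 knockdown and 5.94 and 6.39 in the CD133 knockdown, and fell in the CD133 knockdown, -0.37 (95% confidence interval -0.56 to -0.18, adjusted p = 0.0324). Chst2, a 6-O-sulfotransferase for N-acetylglucosamine, was at 1.47 and 1.94 RPKM in the control libraries, 1.37 and 1.30 in the Glis3 knockdown and 3.05 and 2.82 in the CD133 knockdown. It rose in the CD133 knockdown, 0.55 (95% confidence interval 0.30 to 0.79, adjusted p = 0.0252), and the knockdowns differed by -0.75 (95% confidence interval -1.0 to -0.51, adjusted p = 0.0202). The calls of Chst14 and Chst2 against control were lost without either control or either CD133 library (-0.44 to -0.30 and 0.42 to 0.67), and the Chst2 difference without Glis3 library 3 or either CD133 library (-0.79 to -0.71). Chst4, a related sulfotransferase that was not tested, was at 0.08 and 0.21 RPKM in the control libraries, 0.36 and 0.20 in the Glis3 knockdown and 1.17 and 0.80 in the CD133 knockdown, so both CD133 libraries were above the rest. With no filter on low values it was called in the CD133 knockdown, but Chst4 reached 1 RPKM only in CD133 library 1.

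Of 7 genes for N-glycan branching and core fucose, 1 rose in the Glis3 knockdown (14.29%, beside 8.39% of all genes). The CD133 knockdown had 2 higher (28.57%, beside 8.16%), and none fell in either. Mgat4b and Mgat4a add a β1,4-linked N-acetylglucosamine branch to the same mannose arm. Mgat4b (ENSMUSG00000036620.14, GRCm38 chromosome 11, 50210890 to 50235103, plus strand) was at 23.44 and 23.81 RPKM in the control libraries, 40.21 and 34.45 in the Glis3 knockdown and 41.03 and 41.02 in the CD133 knockdown. Every knockdown library lay above both controls. The log2 fold change was 0.63 (95% confidence interval 0.45 to 0.82, adjusted p = 0.00783) in the Glis3 knockdown, 158% of control, and 0.77 (95% confidence interval 0.59 to 0.95, adjusted p = 0.0104) in the CD133 knockdown, 174%, and between the knockdowns -0.14 (adjusted p = 0.34). Mgat4a, the lower of the pair, was at 5.39 and 5.76 RPKM in the control libraries, 5.83 and 5.30 in the Glis3 knockdown and 7.80 and 7.26 in the CD133 knockdown. It rose in the CD133 knockdown alone by the threshold, 0.38 (95% confidence interval 0.20 to 0.55, adjusted p = 0.0261) against 0.00 (adjusted p = 0.985) in the Glis3 knockdown, and the direct difference was -0.38 (adjusted p = 0.0429). Mgat2, which starts the second antenna, was at 31.70 and 32.37 RPKM in the control libraries, 31.34 and 30.64 in the Glis3 knockdown and 32.13 and 32.59 in the CD133 knockdown. It was not called in either knockdown (log2 fold changes -0.05 and 0.01, adjusted p = 0.558 and 0.874). The rise of Mgat4b in the CD133 knockdown was lost without either control or CD133 library 1 (0.76 to 0.78), that of Mgat4a without either control or either CD133 library (0.33 to 0.42). The Mgat4a difference was called only with all libraries or without Glis3 library 1 (-0.44 to -0.32).

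Mucin-type O-glycans are started by the Galnt family, of which 8 genes were tested and 3 were called in at least 1 comparison. In the Glis3 knockdown 1 rose and 1 fell (12.5% each, beside 8.39% and 4.53% of all genes). In the CD133 knockdown 1 rose (12.5%, beside 8.16%). Galnt7, which acts on peptides that already carry N-acetylgalactosamine, was at 12.74 and 14.00 RPKM in the control libraries, 9.39 and 8.57 in the Glis3 knockdown and 14.30 and 12.74 in the CD133 knockdown. The level fell in the Glis3 knockdown, -0.53 (95% confidence interval -0.72 to -0.33, adjusted p = 0.013), stood at 0.01 (adjusted p = 0.926) in the CD133 knockdown, and differed between them by -0.54 (adjusted p = 0.0229). Galnt12 was at 8.49 and 9.31 RPKM in the control libraries, 11.22 and 11.45 in the Glis3 knockdown and 9.11 and 9.08 in the CD133 knockdown, with both Glis3 libraries above the rest. It rose there by 0.32 (95% confidence interval 0.17 to 0.46, adjusted p = 0.023). Galnt3, the most abundant of the family, was at 36.84 and 35.89 RPKM in the control libraries, 32.52 and 34.66 in the Glis3 knockdown and 46.54 and 42.98 in the CD133 knockdown. It rose in the CD133 knockdown, 0.29 (95% confidence interval 0.14 to 0.44, adjusted p = 0.0323), and was lower in the Glis3 than in the CD133 knockdown, -0.40 (adjusted p = 0.024). Galnt1 was the next in level, at 29.94 and 31.03 RPKM in the control libraries, 33.29 and 31.86 in the Glis3 knockdown and 30.65 and 30.96 in the CD133 knockdown. Neither knockdown passed against control (log2 fold changes 0.09 and 0.01, adjusted p = 0.274 and 0.876). The differences of Galnt7 and Galnt3 between the knockdowns were called only with all libraries or without Glis3 library 1 (-0.62 to -0.46 and -0.46 to -0.35). The rise of Galnt12 was lost also without Glis3 library 3 (0.26 to 0.38), and that of Galnt3 without either CD133 library (0.24 to 0.35). Exons of Galnt7 overlap those of AW046200 on the opposite strand.

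Of 3 genes for O-glycan cores and branches, 1 was called, lower in the Glis3 knockdown (33.33%, beside 4.53% of all genes). Gcnt2, which makes the branched I antigen on lactosamine chains, was at 26.38 and 24.83 RPKM in the control libraries, 18.42 and 17.65 in the Glis3 knockdown and 16.42 and 21.21 in the CD133 knockdown. All 4 knockdown libraries were below control and the knockdowns overlapped each other. In the Glis3 knockdown it fell, -0.48 (95% confidence interval -0.75 to -0.22, adjusted p = 0.0376), and just missed the threshold in the CD133 knockdown, -0.44 (95% confidence interval -0.70 to -0.17, adjusted p = 0.0505). The fall was lost without either control or either Glis3 library (-0.52 to -0.44), and exons of A730081D07Rik and Gm31683 overlap Gcnt2 on the opposite strand. B3gnt3, which extends core 1, was at 17.96 and 22.17 RPKM in the control libraries, 22.88 and 19.94 in the Glis3 knockdown and 32.16 and 23.06 in the CD133 knockdown. Gcnt3, which branches cores 2 and 4, was at 1.34 and 0.73 RPKM in the control libraries, 1.69 and 3.55 in the Glis3 knockdown and 0.73 and 0.64 in the CD133 knockdown. Neither passed: the values were 0.09 (adjusted p = 0.735) and 0.43 (adjusted p = 0.133) for B3gnt3, and 0.80 (adjusted p = 0.0852) and -0.26 (adjusted p = 0.538) for Gcnt3.

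Sialyltransferases, which cap chains with sialic acid, had 7 tested genes. The Glis3 knockdown had 1 higher and 2 lower (14.29% and 28.57%, beside 8.39% and 4.53% of all genes). The CD133 knockdown had 1 lower (14.29%, beside 3.64%). St3gal6 (ENSMUSG00000022747.17, GRCm38 chromosome 16, 58468125 to 58524243, minus strand), which acts on lactosamine ends, was at 4.79 and 4.09 RPKM in the control libraries, 7.01 and 8.17 in the Glis3 knockdown and 3.77 and 4.44 in the CD133 knockdown. The Glis3 libraries were the highest, with no overlap. It rose in that knockdown, 0.66 (95% confidence interval 0.40 to 0.91, adjusted p = 0.0143), stood at -0.09 (adjusted p = 0.603) in the CD133 knockdown, and differed between the knockdowns by 0.75 (95% confidence interval 0.50 to 1.0, adjusted p = 0.0219). St3gal1, which caps the core 1 O-glycan, was at 21.11 and 20.39 RPKM in the control libraries, 15.42 and 10.89 in the Glis3 knockdown and 10.78 and 12.95 in the CD133 knockdown. All 4 knockdown libraries lay below control and the knockdowns overlapped. The fall was -0.64 (95% confidence interval -1.0 to -0.27, adjusted p = 0.042) in the Glis3 knockdown, with -0.87 without Glis3 library 1 and -0.41 without Glis3 library 3, and -0.76 (95% confidence interval -1.13 to -0.40, adjusted p = 0.0283) in the CD133 knockdown. St3gal5, the synthase of the ganglioside GM3, was at 17.63 and 17.12 RPKM in the control libraries, 13.51 and 12.34 in the Glis3 knockdown and 15.55 and 19.22 in the CD133 knockdown. The level fell in the Glis3 knockdown, -0.40 (95% confidence interval -0.64 to -0.16, adjusted p = 0.0455), and its CD133 value was -0.01 (adjusted p = 0.972).

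St3gal2, which acts on O-glycans and gangliosides, was at 17.26 and 18.42 RPKM in the control libraries, 15.94 and 13.72 in the Glis3 knockdown and 20.29 and 21.55 in the CD133 knockdown. It passed against control in neither knockdown (log2 fold changes -0.25 and 0.22, adjusted p = 0.0854 and 0.121), but the Glis3 libraries were below and the CD133 libraries above control, and the knockdowns differed by -0.47 (95% confidence interval -0.66 to -0.28, adjusted p = 0.0346). St3gal4 was at 187.17 and 172.89 RPKM in the control libraries, 207.25 and 216.83 in the Glis3 knockdown and 160.19 and 178.55 in the CD133 knockdown. Both Glis3 libraries exceeded both controls, with 0.24 (95% confidence interval 0.05 to 0.42, adjusted p = 0.0889) not past the threshold, and the CD133 value was -0.09 (adjusted p = 0.478). St6gal1, which makes the α2,6 linkage on N-glycans, was at 40.62 and 44.31 RPKM in the control libraries, 37.26 and 35.03 in the Glis3 knockdown and 40.64 and 38.75 in the CD133 knockdown. Against control it was called in neither knockdown (log2 fold changes -0.23 and -0.09, adjusted p = 0.0665 and 0.374). With 1 library left out, the differences of St3gal6 and St3gal2 between the knockdowns were called only without Glis3 library 1 (0.65 to 0.85 and -0.57 to -0.37). The St3gal1 fall in the Glis3 knockdown likewise held only without Glis3 library 1. The rise of St3gal6 was lost also without Glis3 library 3 (0.56 to 0.76), the St3gal5 fall without either Glis3 library (-0.46 to -0.34), and the St3gal1 fall in the CD133 knockdown without either CD133 library (-0.88 to -0.64). Exons of St3gal6 overlap those of Dcbld2, and of St3gal4 those of 4930581F22Rik, on the opposite strand.

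Of 3 tested fucosyltransferases, placed by symbol in the role of fucose caps, limma called 0 in each comparison. At an unadjusted p under 0.05 only Fut4 passed, in the direct comparison of the knockdowns. Fut11 was at 11.74 and 11.85 RPKM in the control libraries, 13.03 and 11.89 in the Glis3 knockdown and 12.27 and 11.94 in the CD133 knockdown, with values of 0.07 (adjusted p = 0.465) and 0.03 (adjusted p = 0.742). Fut2, which makes the H antigen of secretions, was at 5.35 and 6.26 RPKM in the control libraries, 7.24 and 4.37 in the Glis3 knockdown and 8.62 and 7.62 in the CD133 knockdown, with both CD133 libraries above control, and its values were -0.03 (adjusted p = 0.936) and 0.42 (adjusted p = 0.185). The untested Fut10 lay between 0.59 and 1.11 RPKM and Fut9 between 0.45 and 1.27. Hs3st3b1, the untested heparan sulfate gene, lay between 0.79 and 1.19.

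The 10 genes that extend chains with galactose, lactosamine and related sugars gave, besides B4galnt2, a single call. With B4galnt2 counted, 10% rose and 10% fell in the Glis3 knockdown, beside 8.39% and 4.53% of all genes. The CD133 knockdown had 10% higher, beside 8.16%. B4galt2, a β1,4-galactosyltransferase, was at 3.48 and 3.45 RPKM in the control libraries, 2.70 and 2.50 in the Glis3 knockdown and 2.95 and 3.27 in the CD133 knockdown. It was called lower in the Glis3 knockdown, -0.31 (95% confidence interval -0.49 to -0.13, adjusted p = 0.0422), a call lost when any single library was left out (-0.35 to -0.27), and its exons overlap those of Slc6a9 on the opposite strand and Ccdc24 on the same strand. B4galt1, the main lactosamine synthase, was at 29.59 and 30.53 RPKM in the control libraries, 28.53 and 29.08 in the Glis3 knockdown and 30.86 and 29.68 in the CD133 knockdown. B4gat1, which acts in synthesis of the dystroglycan glycan matriglycan, was at 18.64 and 20.03 RPKM in the control libraries, 20.92 and 19.13 in the Glis3 knockdown and 20.18 and 21.65 in the CD133 knockdown. Neither was called: the values were -0.06 (adjusted p = 0.472) and 0.01 (adjusted p = 0.921) for B4galt1, and 0.05 (adjusted p = 0.679) and 0.11 (adjusted p = 0.341) for B4gat1.

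The RPKM of the genes were also summed by role, and these sums were not tested. Sums without the called genes are given too, and leaving out genes picked for their change shrinks a gap by construction. For the glycosaminoglycan linker and chain genes the sum was 148 ± 0.502 RPKM in control, 123 ± 2.89 in the Glis3 knockdown and 135 ± 7.36 in the CD133 knockdown (SD, n = 2 each). Both knockdowns lay below control without overlap, and without Chsy3 and Ext1 the sum of the other 7 genes was 93.76 to 97.61 RPKM in the 6 libraries, with control and knockdowns overlapping. For N-glycan branching both knockdowns lay above control, with 107 ± 0.318 in control, 120 ± 2.90 in the Glis3 knockdown and 126 ± 1.24 in the CD133 knockdown (SD, n = 2 each). Without Mgat4a and Mgat4b the other 5 genes summed to 76.11 to 78.30 RPKM, again with overlap. The Chst family summed to 35.9 ± 2.10 in control, 28.8 ± 3.52 in the Glis3 knockdown and 36.0 ± 0.474 in the CD133 knockdown (SD, n = 2 each), so only the Glis3 libraries were low. Without the called Chst2, Chst11 and Chst14 the other 5 genes were at 8.59 and 9.33 RPKM in control, 8.38 and 7.87 in the Glis3 knockdown and 10.30 and 10.15 in the CD133 knockdown. The total over all 72 genes was 1117.1 and 1108.0 RPKM in control, 1108.9 and 1082.7 in the Glis3 knockdown and 1106.8 and 1138.9 in the CD133 knockdown.

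**Figure D4:**
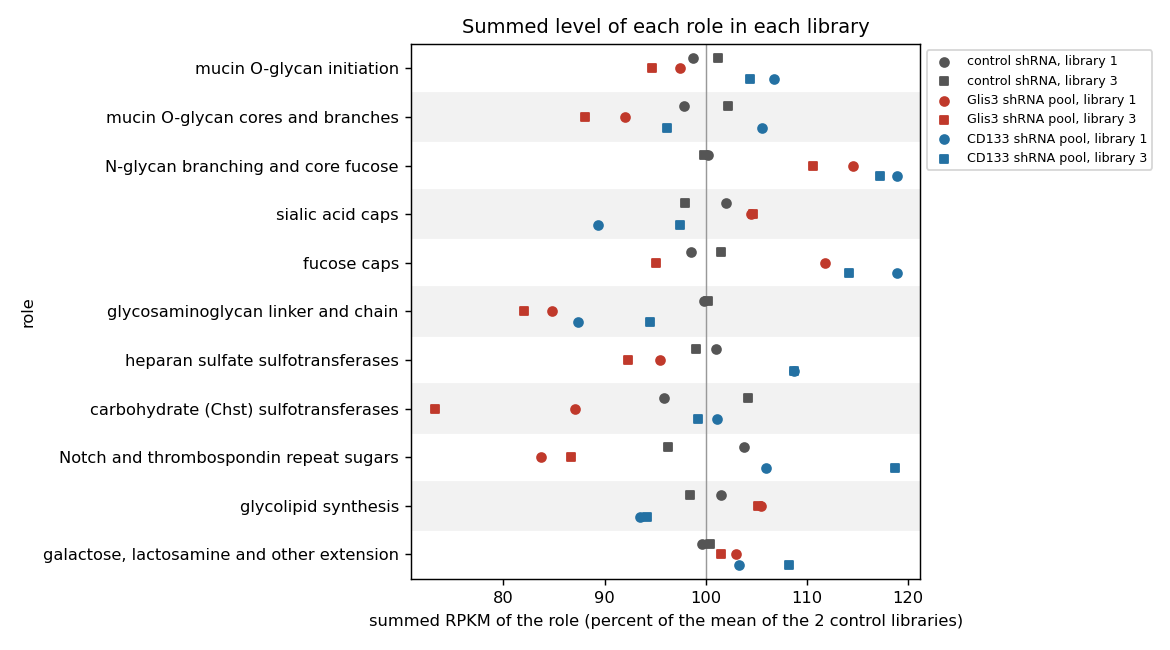
Summed RPKM of each role in each library, as a percent of the mean of the 2 controls; circles are library 1, squares library 3, and colours give the group. All 4 knockdown libraries lie below control for the glycosaminoglycan chain genes (121.4 to 139.7 against 147.6 and 148.3 RPKM). They lie above it for N-glycan branching (118.0 to 126.8 against 106.9 and 106.5 RPKM). These gaps close when Chsy3 and Ext1, or Mgat4a and Mgat4b, are left out. Those genes were picked because they were called, so smaller gaps follow by construction.

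Around these enzymes, 9 lists held other genes of glycan synthesis, carriage, binding and breakdown, with 170 tested genes in all. In the Glis3 knockdown 12 rose and 13 fell, with a median log2 fold change of 0.04, and in the CD133 knockdown 18 rose and 4 fell, with a median of 0.08. These were 7.06% and 7.65% in the Glis3 knockdown, beside 8.39% and 4.53% of all genes, and 10.59% and 2.35% in the CD133 knockdown, beside 8.16% and 3.64%. Between the knockdowns 2 were higher and 6 lower in the Glis3 knockdown (1.18% and 3.53%, beside 1.61% and 2.46%). Without control library 1 or 3, limma called 0 or 2 of the 170 in the Glis3 knockdown, beside 0.19% and 0.81% of all genes, and 0 in the CD133 knockdown, as of all genes. With all libraries, 57 of the 170 had an unadjusted limma p under 0.05 in each knockdown. Over the 10829 genes the counts were 3305 in the Glis3 knockdown and 3366 in the CD133 knockdown. Of 27 genes for sugar and sulfate donors, 1 rose and 1 fell in the Glis3 knockdown (3.7% each, beside 8.39% and 4.53%). The CD133 knockdown had 2 higher and 1 lower (7.41% and 3.7%, beside 8.16% and 3.64%). Of 15 Golgi transporters 1 rose in the Glis3 knockdown (6.67%, beside 8.39%) and 2 in the CD133 knockdown (13.33%, beside 8.16%). Slc35c1, which carries GDP-fucose, was at 20.95 and 20.49 RPKM in the control libraries, 36.09 and 33.94 in the Glis3 knockdown and 37.08 and 34.31 in the CD133 knockdown, and rose by 0.73 (adjusted p = 0.00428) and 0.76 (adjusted p = 0.00874). All 4 knockdown libraries were above both controls.

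**Figure D5:**
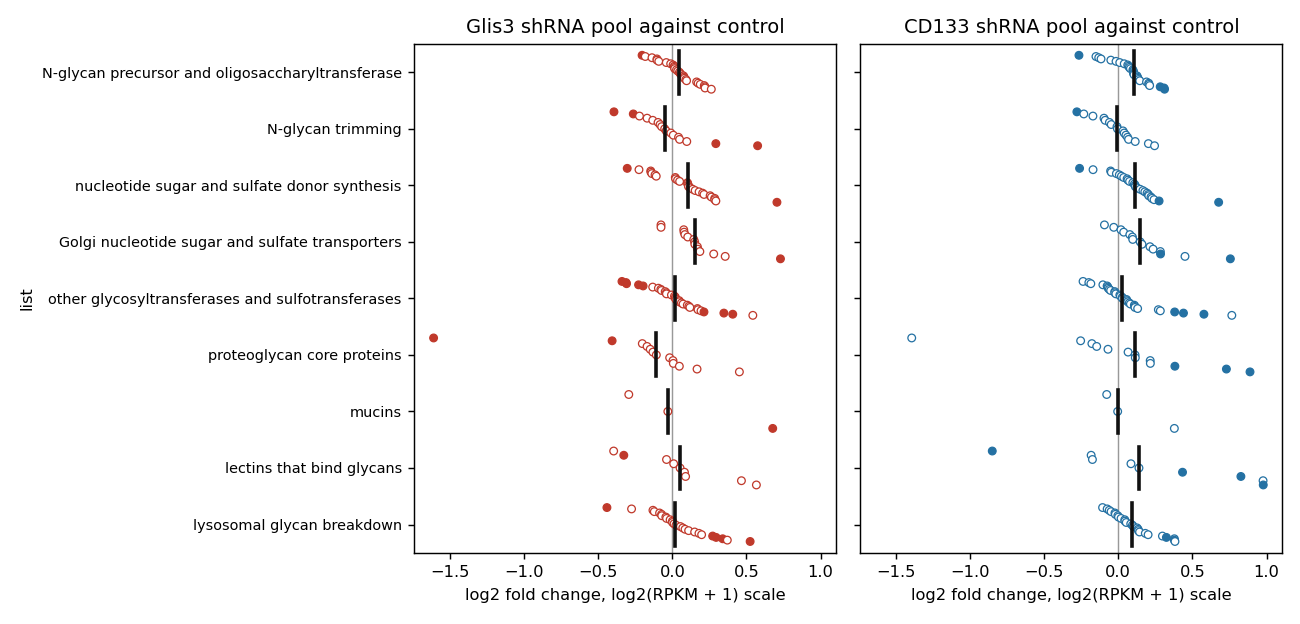
Log2 fold change against control of each tested gene in the 9 lists, for the Glis3 knockdown (left) and the CD133 knockdown (right); filled points passed an adjusted p of 0.05 and black bars are list medians. Gpc3 lies furthest to the left in both panels, at -1.61 and -1.39.

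Galactosylceramide, the product of Ugt8a, has 2 further enzymes in these lists. Galc, the lysosomal galactosylceramidase that breaks it down, was at 10.26 and 9.71 RPKM in the control libraries, 7.02 and 7.16 in the Glis3 knockdown and 12.70 and 12.80 in the CD133 knockdown. The level fell in the Glis3 knockdown, -0.44 (adjusted p = 0.00863), rose in the CD133 knockdown, 0.32 (adjusted p = 0.0209), and differed between them by -0.77 (adjusted p = 0.00474). Gal3st1, which sulfates it to sulfatide, was at 4.50 and 4.63 RPKM in the control libraries, 6.03 and 4.60 in the Glis3 knockdown and 7.65 and 6.97 in the CD133 knockdown. Its change passed in the CD133 knockdown, 0.58 (adjusted p = 0.0262), and not in the Glis3 knockdown, 0.17 (adjusted p = 0.335). The Galc difference was kept when any single library was left out (-0.78 to -0.75), and the rises of Galc and Gal3st1 were lost without either control or either CD133 library (0.29 to 0.36 and 0.52 to 0.64). Of 26 lysosomal genes, 4 rose and 1 fell in the Glis3 knockdown (15.38% and 3.85%, beside 8.39% and 4.53% of all genes). In the CD133 knockdown 2 rose (7.69%, beside 8.16%). Hpse, the heparanase, was at 4.35 and 4.98 RPKM in the control libraries, 6.48 and 7.85 in the Glis3 knockdown and 6.15 and 5.76 in the CD133 knockdown. It rose in the Glis3 knockdown, by 0.52 (adjusted p = 0.0223), a call lost without either control or Glis3 library 3 (0.40 to 0.65).

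Of 13 proteoglycan core proteins, 2 fell in the Glis3 knockdown (15.38%, beside 4.53% of all genes). In the CD133 knockdown 3 rose (23.08%, beside 8.16%). Gpc3, a glypican that binds Wnt and Hedgehog ligands, was at 10.71 and 7.95 RPKM in the control libraries, 2.74 and 2.01 in the Glis3 knockdown and 1.53 and 5.01 in the CD133 knockdown. A fall in the Glis3 knockdown was called, -1.61 (adjusted p = 0.0388), and its value in the CD133 knockdown, -1.39 (adjusted p = 0.0566), did not pass. Sdc4, a syndecan, was at 224.70 and 225.85 RPKM in the control libraries, 183.13 and 157.41 in the Glis3 knockdown and 187.35 and 190.21 in the CD133 knockdown, with -0.41 (adjusted p = 0.0242) in the Glis3 knockdown. The 3 that rose in the CD133 knockdown were Gpc2 (0.89, adjusted p = 0.0213), Col18a1 (0.73, adjusted p = 0.0276) and Gpc1 (0.38, adjusted p = 0.0324). Gpc2 was at 0.70 and 0.52 RPKM in the control libraries, 1.48 and 0.95 in the Glis3 knockdown and 1.69 and 2.29 in the CD133 knockdown. Under 1 RPKM in control, Gpc2 was in the fit only through the knockdown libraries, which limits its p in the same way as for B4galnt2. Col18a1, the core of a basement membrane proteoglycan, was at 20.80 and 24.99 RPKM in the control libraries, 24.57 and 20.61 in the Glis3 knockdown and 43.54 and 33.94 in the CD133 knockdown. In both, the CD133 libraries were above the controls. Without either control or either Glis3 library the Gpc3 call was lost (-1.80 to -1.42). That of Gpc2 was lost without either control or either CD133 library (0.74 to 1.03), and those of Col18a1 and Gpc1 without either control or CD133 library 1 (0.55 to 0.90 and 0.27 to 0.49).

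Among 17 genes of N-glycan trimming, 2 rose and 2 fell in the Glis3 knockdown (11.76% each, beside 8.39% and 4.53% of all genes). The CD133 knockdown had 1 lower (5.88%, beside 3.64%). Man2a1, the Golgi mannosidase that opens the way to complex N-glycans, was at 17.44 and 18.08 RPKM in the control libraries, 24.87 and 29.18 in the Glis3 knockdown and 20.42 and 18.24 in the CD133 knockdown, and rose in the Glis3 knockdown by 0.57 (adjusted p = 0.0131). Man1a, an earlier-acting mannosidase, was at 7.49 and 7.61 RPKM in the control libraries, 5.90 and 5.14 in the Glis3 knockdown and 7.32 and 7.68 in the CD133 knockdown, and fell in the Glis3 knockdown, -0.39 (adjusted p = 0.0213). Of 29 genes that build and transfer the precursor, 1 fell in the Glis3 knockdown (3.45%, beside 4.53% of all genes). The CD133 knockdown had 3 higher and 1 lower (10.34% and 3.45%, beside 8.16% and 3.64%), so these shares were near those of all genes. The 3 were Alg3 (0.31, adjusted p = 0.034), Ostc (0.31, adjusted p = 0.0421) and Alg8 (0.28, adjusted p = 0.028). Their calls were lost without either control or either CD133 library (0.23 to 0.40, 0.22 to 0.40 and 0.24 to 0.33). The list of 31 other glycosyltransferases and sulfotransferases had 3 higher and 5 lower in the Glis3 knockdown (9.68% and 16.13%, beside 8.39% and 4.53%). The CD133 knockdown had 3 higher (9.68%, beside 8.16%). The tyrosine sulfotransferases had opposite directions in the Glis3 knockdown, where Tpst1 rose and Tpst2 fell. Tpst1 was at 3.42 and 3.91 RPKM in the control libraries, 5.03 and 5.33 in the Glis3 knockdown and 4.73 and 4.61 in the CD133 knockdown. Tpst2 was at 10.57 and 10.95 RPKM in the control libraries, 8.77 and 7.84 in the Glis3 knockdown and 11.03 and 11.87 in the CD133 knockdown. The log2 fold changes were 0.41 (adjusted p = 0.0206) and -0.34 (adjusted p = 0.029), and both calls were lost without either control or Glis3 library 3 (0.33 to 0.48 and -0.41 to -0.27).

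Of 9 lectins, 1 fell in the Glis3 knockdown (11.11%, beside 4.53% of all genes). In the CD133 knockdown 3 rose and 1 fell (33.33% and 11.11%, beside 8.16% and 3.64%). Lgals1, a galectin that binds lactosamine, was at 13.45 and 13.19 RPKM in the control libraries, 10.45 and 9.35 in the Glis3 knockdown and 6.16 and 7.82 in the CD133 knockdown. It fell in the CD133 knockdown, -0.85 (adjusted p = 0.0125). Lgals2 was at 4.88 and 5.86 RPKM in the control libraries, 8.02 and 8.81 in the Glis3 knockdown and 15.46 and 8.50 in the CD133 knockdown. Lgals9 was at 17.49 and 21.18 RPKM in the control libraries, 31.01 and 23.44 in the Glis3 knockdown and 38.16 and 31.94 in the CD133 knockdown. Both galectins rose in the CD133 knockdown, by 0.98 (adjusted p = 0.0434) and 0.83 (adjusted p = 0.0242). For Lgals2, CD133 library 1 was far above library 3, and the value ranged from 0.58 without library 1 to 1.37 without library 3. The calls of these 3 galectins were lost without either control or CD133 library 1. Of 3 mucins and mucin-like proteins tested, Dmbt1, at 156.56 and 163.73 RPKM in the control libraries, 274.91 and 239.39 in the Glis3 knockdown and 240.56 and 180.46 in the CD133 knockdown, rose in the Glis3 knockdown, 0.68 (adjusted p = 0.0269), a call lost without either control or either Glis3 library (0.58 to 0.78). Muc1, the most abundant, was at 301.98 and 283.79 RPKM in the control libraries, 316.71 and 259.43 in the Glis3 knockdown and 300.00 and 284.03 in the CD133 knockdown. It was not called in either knockdown (log2 fold changes -0.03 and 0.00, adjusted p = 0.868 and 0.982).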

How the data were processed

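What the authors deposited is 1 table, in RPKM (reads per kilobase of transcript and per megaread) with 2 decimals for 11164 genes in 6 libraries. The submitters' processing notes list the build mm10 and the tools HTSeq, TopHat2 and bcl2fastq 2.18.0.12, with no order or settings. Which annotation was used, the totals behind the RPKM, and whether reads were counted by strand are not given in the sources used. The lowest per-gene maximum was 1 RPKM, so genes below that in all libraries have no value. No batch or date is given.

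The fit took log2(RPKM + 1) of the 10829 genes whose mean reached 1 RPKM. It used limma 3.58.1 (R 4.3.3) with 1 mean per group over 3 groups and a variance trend, which left 3 residual and 3.69 prior degrees of freedom. Tests were two-sided, and the Benjamini-Hochberg adjustment covered every gene of the fit. Genes with an adjusted p under 0.05 were called. Adjusted p-values given are those of limma with all libraries unless an alternative is named. The fit was tested on simulated data.

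Depth was estimated from the steps between low values of genes with transcripts under 1200 bases and values under 3 RPKM. Of these values 56.8% to 62.6% came out whole within 0.15 read, beside 30% by construction, so reads were not recovered and no count test was run. Positions and overlaps are from GENCODE M21 (GRCm38, the assembly of mm10), in which all 72 genes were found. Of these, 20 have exons that overlap another gene's on the opposite strand. Promoters are from RefSeq.

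The genes, roles and lists were chosen with earlier results of these data known. Named were all called genes of the set, the 2 most abundant of each role, Glis3 and Prom1, and up to 3 called genes of each list. A few list genes that this rule picks are not reported here, and a few genes outside it were named after their values were seen. Alternatives changed the pseudocount, the filter, the scaling, the variance trend, the groups fitted, the replicate block, and each library left out in turn.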

Additional observations from a re-analysis of the deposited data

How the results depend on the processing

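Every called glycosyltransferase or sulfotransferase gene kept its direction under every alternative run. As the groups compared did not overlap for these genes, most alternatives could not have reversed it. The 1 reversal was Glis3 in the CD133 knockdown, not called, at -0.04 with all libraries and between -0.0869 and 0.0141 with 1 left out. With 1 library left out, the Glis3 knockdown had 2 to 7 higher and 0 to 10 lower genes and 0 to 18 called list genes. The CD133 knockdown had 0 to 10, 0 to 4 and 0 to 27, and the comparison of the knockdowns 0 to 2, 1 to 10 and 1 to 13. With a minimum mean of 5 RPKM, 3 genes were higher in the Glis3 and 5 in the CD133 knockdown, by construction among fewer genes. With median centring 7 were lower in the CD133 knockdown. With only the groups compared in the fit, the Glis3 knockdown had 7 lower genes and 16 list genes, and the comparison of the knockdowns 0 higher, 3 lower and 1 list gene. The replicate numbers did not pair the libraries: the correlation of the differences between libraries 3 and 1 was -0.372 for control and Glis3, -0.428 for control and CD133, and 0.032 for Glis3 and CD133. With the replicate block, the Glis3 knockdown had 5 lower genes and 8 list genes, the CD133 knockdown 4 higher, 0 lower and 5 list genes, and the comparison of the knockdowns 0 higher, 2 lower and 1 list gene. Over all genes the block moved the called share from 12.93% to 5.61%, from 11.8% to 3.09% and from 4.06% to 0.73%. At an unadjusted p under 0.05, limma with the block had 8 lower genes in the CD133 knockdown and 8 higher between the knockdowns. Shares of all genes at that threshold with the block are not given here. A block with crossed numbers, chosen after seeing the data, gave 9 higher and 10 lower genes in the Glis3 knockdown and 11 and 4 in the CD133 knockdown. Other causes of these shifts were not tested. With 2 libraries per group, a single library sets much of the spread, and values near 1 RPKM rest on few reads.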
